A study of Mus musculus with 2 samples.

Results

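The Cyp3a subfamily of the mouse comprises cytochrome P450 enzymes, here represented by 5 genes of the 12393 that had a probe set naming them alone. They are Cyp3a11, Cyp3a13, Cyp3a16, Cyp3a25 and Cyp3a44, taken by gene symbol. The subfamily was chosen with earlier results of these data known. Each was read by 1 probe set, so the 5 members rest on 5 of 22690 probe sets. In the mouse gene table (GRCm38.p6, used for names and gene order) the subfamily holds 9 protein-coding genes and 4 pseudogenes, all on chromosome 5, and 5 of the 9 had a probe set of their own. A further probe set carries 2 symbols of the subfamily and stays unnamed.

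CYP3A enzymes sit in the endoplasmic reticulum of hepatocytes and enterocytes, where they oxidise steroids, bile acids and many drugs with electrons from P450 reductase. In the liver their genes are known to be induced through the xenobiotic receptors PXR (gene Nr1i2) and CAR (gene Nr1i3), which bind DNA together with retinoid X receptors. Some mouse members, Cyp3a16 and Cyp3a44 among them, are known to be more abundant in adult females, under control of the pattern of growth hormone secretion.

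Liver RNA was measured on 1-colour Affymetrix arrays, 1 array for each of 2 diets. The mice are described as females, 2 months old, homozygous for the apolipoprotein E knockout in a C57BL/6J background, with 6 per diet in the study's design. One diet was chow with 10% (w/w) olive oil and the other the same chow with that share of an olive oil to which maslinic acid, a triterpene found in olive fruit, was added by enrichment; each was eaten for 4 weeks. The comparison addresses which liver genes differ when the oil contains this compound. The arrays are named here as labelled, the OO array for olive oil and the MAOO array for the oil enriched in maslinic acid. The sources used here do not say whether an array carried RNA of 1 mouse or of several. With 1 array per diet there is no replicate, test or error for any difference between the diets, and values are given side by side. In whole liver RNA, fewer cells of a type and less RNA per cell cannot be told apart.

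Signals are MAS5 intensities as deposited, on a linear scale with a 2% trimmed mean of 200.1 on each array. A gene counted as measured where its signal reached 80.0 on at least 1 array, and signals under a floor of 40.0 were raised to it before ratios were taken. Of all named genes 5911 were measured, with a median log2 ratio (MAOO array over OO array) of -0.01. The targeted gene, Apoe, read 407.7 on the OO array and 7630 on the MAOO array. The reading on the MAOO array goes against its knockout label, although the positions of the probes in the gene were not used here. A difference of genotype and a difference of diet between the arrays therefore cannot be told apart, and every direction is between the arrays as labelled. Of 7 measured hepatocyte markers all 7 lay lower on the MAOO array, against 52.0% of all measured genes, with a median of -0.18. With quantile normalization 5 of 7 did and with a loess trend on signal removed 6 of 7. Their summed signal was 68852 on the OO array and 61850 on the other.

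Of the intestinal markers, Vil1, Lct and Cdx2 were all under the floor on both arrays, with signals of at most 9.8. The other markers on that list, Apob and Fabp2, are also liver genes; they were measured at log2 ratios of -0.29 and -0.09, and the summed list read 8854 and 7409. None of the 4 cholangiocyte markers on the array was measured. The Kupffer cell list had a median log2 ratio of 0.07 over 9 measured genes, of which Marco, a scavenger receptor gene, was lowest at -2.0 (338.1 and 84.6). The median was 0.27 over 5 genes for the stellate list, -0.17 over 5 for the endothelial list and 1.02 over 2 for the lymphocyte list. Those 2 were Ighm, whose measured probe sets ranged from 0.49 to 1.54, and H2-Aa at 0.50. Cd79a and Cd3e, on the same list, were under the floor on both arrays. The part of these cell types in the Cyp3a values was not tested.

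The sequences just upstream of 3 members are shown because they bear on how alike these stretches are in genes that gave unlike ratios. All 5 members matched an entry in the RefSeq promoter table, and the 250 bases before the annotated transcript start are printed 5′ to 3′ on the gene's own strand, which is the minus strand for each (GRCm38.p6, RefSeq). They lie at chr5:145469724-145469973 for Cyp3a16, chr5:145805875-145806124 for Cyp3a44 and chr5:145879855-145880104 for Cyp3a11. Capitals in the Cyp3a16 sequence mark the match to a motif searched for, AAAGTCC. Capitals in the sequences of Cyp3a44 and Cyp3a11 mark bases that differ from, or are absent in, Cyp3a16 when each is aligned to it.
Cyp3a16: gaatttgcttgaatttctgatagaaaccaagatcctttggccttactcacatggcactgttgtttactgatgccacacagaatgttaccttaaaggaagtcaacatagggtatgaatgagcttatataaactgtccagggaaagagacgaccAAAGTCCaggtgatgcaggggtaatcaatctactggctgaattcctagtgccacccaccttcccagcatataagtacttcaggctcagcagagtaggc
Cyp3a44: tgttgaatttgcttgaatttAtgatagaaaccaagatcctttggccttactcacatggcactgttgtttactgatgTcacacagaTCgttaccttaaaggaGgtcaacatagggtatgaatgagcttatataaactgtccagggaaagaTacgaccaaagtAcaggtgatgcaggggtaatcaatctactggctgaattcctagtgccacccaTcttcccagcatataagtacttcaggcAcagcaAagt
Cyp3a11: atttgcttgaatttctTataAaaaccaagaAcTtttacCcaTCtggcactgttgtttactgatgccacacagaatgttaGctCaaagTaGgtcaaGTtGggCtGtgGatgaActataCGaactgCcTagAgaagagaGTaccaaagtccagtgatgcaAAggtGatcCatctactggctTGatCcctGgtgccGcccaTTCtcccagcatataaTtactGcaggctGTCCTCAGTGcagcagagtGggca

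Over 246 aligned bases the upstream sequences of Cyp3a16 and Cyp3a44 were 95.9% identical, with 10 substitutions and 0 gaps. Cyp3a11 was 77.1% identical to Cyp3a16 and 76.2% to Cyp3a44. The upstream sequence of Cyp3a13, which lies apart from the other members on the chromosome, gave no alignment of 200 columns or more with any of them, and Cyp3a25 gave one only with Cyp3a11, at 53.1% identity. These stretches lie before the transcript start, so their identity does not show how alike the transcripts are. Neither probe nor transcript sequences were used here. Whether the signals of Cyp3a16 and Cyp3a44 each include transcripts of another copy was not tested.

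Motifs were searched on both strands of the same 250 bases; they were chosen with the sequences in view. AAAGTCC, letters of a sequence that HNF4A is known to bind, occurred once each in Cyp3a16 and Cyp3a11, and in 3.65% of all 27025 promoters of the table. In Cyp3a44 these letters are broken by the substitution C158A, counted from 1 at the 5′ end of the printed Cyp3a16 sequence. AGGTCA, the core sequence that many nuclear receptors recognise, occurred in 13.8% of promoters. Of the members, Cyp3a11 and Cyp3a44 had 1 match and Cyp3a25 had 2, and the match in Cyp3a44 includes the base of the substitution A98G. AGTTCA, a variant of it known from PXR elements, occurred in 11.9% of promoters and among the members once, in Cyp3a11. TTC and GAA with 3 bases between them, the form that STAT5 is known to bind, matched none of the members and 7.18% of promoters. The motifs do not overlap each other in any member. No match says only that the letters are not in this window, and PXR elements of Cyp3a genes are known to lie further upstream as well.

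Of the 5 members, 1 was at least 2-fold higher on the MAOO array, against 0.305% of all measured genes, and 0 were at least 2-fold lower, against 0.305%. The other 4 lay within 1.5-fold, and 3.05% of all measured genes were 1.5-fold or more apart in either direction. All 5 members reached the minimum signal. Their median log2 ratio was 0.10, and 3 were higher and 2 lower (4 and 1 with a loess trend on signal removed), against 48.0% of measured genes higher. The ratios ran from -0.22 to 1.47, and without Cyp3a16 the median was 0.04.

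**Figure D1:**
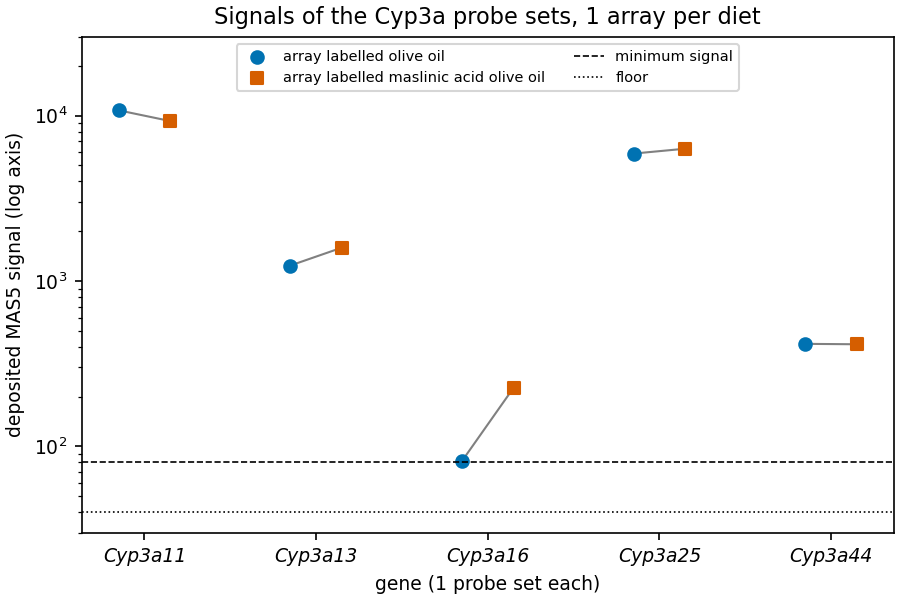
Deposited MAS5 signal (log axis) of the probe set of each Cyp3a gene on the OO array (circles) and the MAOO array (squares), 1 array each; dashed and dotted lines are the minimum of 80.0 and the floor of 40.0. Cyp3a16 climbs from 81.6, at the minimum line, to 226.0, while the lines of the other genes are nearly level.

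Cyp3a16, an enzyme known from fetal and neonatal liver and from adult females, had a signal of 81.6 on the OO array and 226.0 on the MAOO array. The second value was 2.77-fold the first, a log2 ratio of 1.47. Only 8 of the 5911 measured genes had a higher ratio. On the OO array the signal was 1.02 times the minimum and 2.04 times the floor, so the fold rests on a dim reading on that side. Among the 500 other measured genes nearest to it in mean signal (139.2 to 170.0), the central 95% of log2 ratios ran from -0.45 to 0.42, and 0 of the 500 lay as far from 0. The only repeat measurement in these data, other probe sets of the same gene, had an SD of 0.26 in log2 ratio over the 107 of these genes with more than 1 measured probe set. That spread is technical and says nothing of the variation between mice.

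Cyp3a44, another member known as female-predominant, read 416.8 on the OO array and 414.4 on the MAOO array. These signals were nearly equal, with a log2 ratio of -0.01 that turned to 0.001 when a loess trend on signal was removed. In log2 ratio Cyp3a16 and Cyp3a44 were 1.48 apart. The members with the most similar upstream sequences, 95.9% identical in the printed stretch, were not the ones with the most similar ratios. The closest pair in ratio was Cyp3a25 and Cyp3a44, 0.11 apart, under the main scaling, and Cyp3a11 and Cyp3a44 with quantile normalization (0.050 apart) and with the loess trend removed (0.11 apart).

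**Figure D2:**
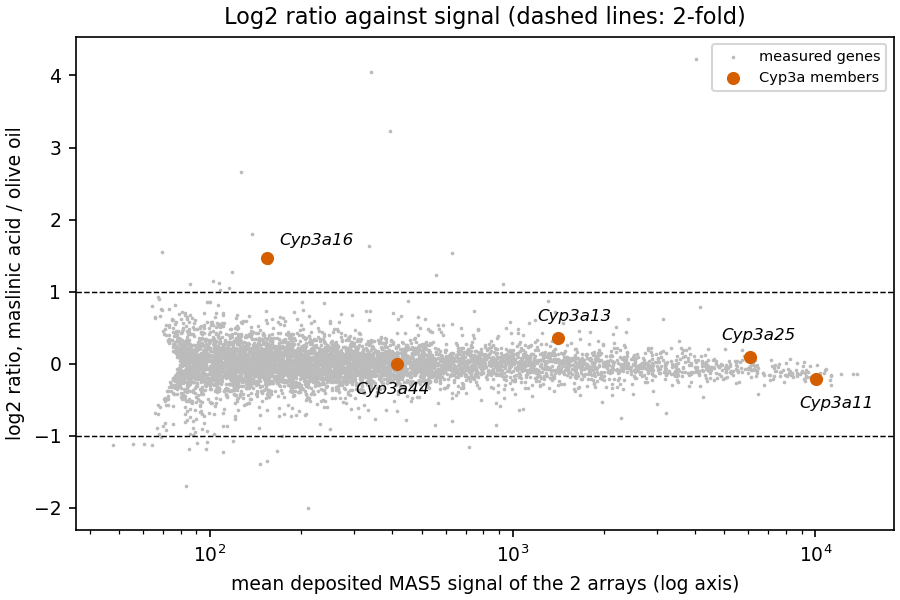
Log2 ratio of the MAOO array over the OO array against mean deposited signal (log axis); grey points are the 5911 measured genes, orange points the Cyp3a members and dashed lines 2-fold. Cyp3a16 at 1.47 lies outside the band of genes of similar signal, Cyp3a13 at 0.36 at its upper edge, and Cyp3a44, Cyp3a25 and Cyp3a11 inside it.

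Cyp3a13, a member expressed in liver and intestine and the only one outside the gene cluster, read 1240.8 on the OO array and 1591.2 on the MAOO array. The difference was 1.28-fold, a log2 ratio of 0.36. It lay just beyond the central 95% of the 500 measured genes of nearest signal, -0.32 to 0.32, and 19 of those 500 lay at least as far from 0. Of all measured genes 596, or 10.1%, were at least as far apart. The SD between probe sets of a gene at this signal was 0.20.

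Cyp3a25, a liver enzyme that neighbours Cyp3a11, read 5897.4 on the OO array and 6310.3 on the MAOO array, 1.07-fold and a log2 ratio of 0.10. Of the 500 genes nearest in signal 246 lay at least as far from 0, so the reading did not stand out. Those bright genes had a median log2 ratio of -0.06. The ratio of Cyp3a25 was 0.16 with quantile normalization and 0.18 with the loess trend removed.

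Cyp3a11, the main PXR-inducible Cyp3a enzyme of mouse liver, read 10766.8 on the OO array and 9275.7 on the MAOO array, a log2 ratio of -0.22. Of the 500 measured genes nearest in signal, 59 lay at least as far from 0. These 500 (1918 to 13680) had the same signal range and median as those for Cyp3a25, and reached down to signals far below that of Cyp3a11. The 7 measured hepatocyte markers ranged from -0.23 (Ttr) to -0.01 (Fgb), with Alb at -0.21, Hpd at -0.18 and Cps1 at -0.18. With the loess trend removed the ratio of Cyp3a11 was -0.11, and with quantile normalization -0.05. The size of this small difference therefore depended on how bright genes were scaled. In gene order Cyp3a11 and Cyp3a25 are neighbours, and their ratios had opposite signs, 0.31 apart, under the main scaling.

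**Figure D3:**
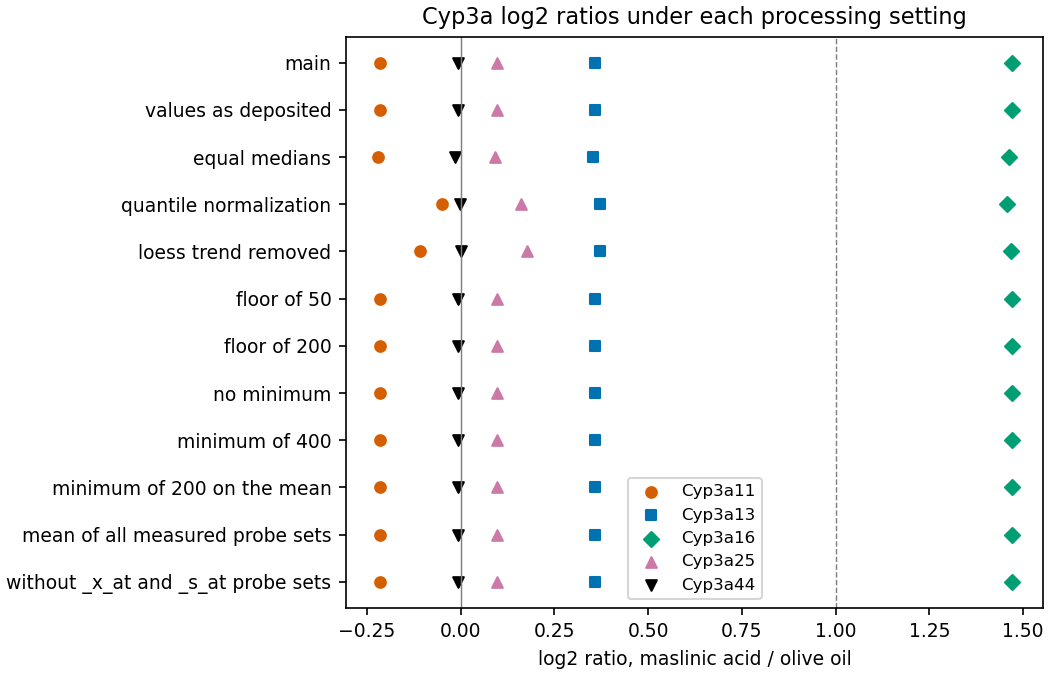
Log2 ratio (MAOO array over OO array) of each Cyp3a gene under the main processing and the 11 alternatives; the dashed line is 2-fold. Cyp3a16 stays between 1.46 and 1.47, and the values that shift visibly are Cyp3a11 (-0.22 to -0.05) and Cyp3a25 (0.09 to 0.18).

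Beside the members in the gene table, the only other gene with a probe set of its own among the 2 nearest on each side was Gjc3, a connexin gene near Cyp3a13, which read 3.8 and 0.4 and was not measured. Other genes of the cluster were not analysed here. The 3 measured genes nearest to Cyp3a16 in log2 ratio over the 2 arrays were Ighm (1.54), the immunoglobulin mu heavy chain, Lims1 (1.39), an integrin adaptor, and Cyp2b10, a phenobarbital-inducible P450, whose ratio of 1.55 is a bound because the signal on the OO array lay under the floor. Each gene is read here by its brightest probe set. The 3 measured probe sets of Ighm ranged from 0.49 to 1.54, and those of Cyp2b10 from 1.14 to 1.57. Likeness here is only the absolute difference of 1 ratio per gene, 0.066 to 0.079. For Cyp2b10 that difference depends on the floor, since its ratio is a bound.

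Of all 5911 measured genes only 11 (0.186%), Cyp3a16 included, lay at least as far from 0 as Cyp3a16. Among 22 listed genes known to control Cyp3a transcription, no measured one did, which at this share says little about the list. Genes outside this list were not examined for such a role. Of 17 measured regulators of 22 listed, 6 were higher and 11 lower on the MAOO array, against 52.0% of all measured genes lower. Their median log2 ratio was -0.17, against -0.01 for all measured genes. All 17 lay within 1.5-fold, as did all but 3.05% of measured genes. The largest differences were in Rxrb, a retinoid X receptor, at -0.56 (269.2 and 182.4), the forkhead factor gene Foxa3 at -0.42, Bcl6, a repressor of female-biased genes, at -0.42, and Cebpb at -0.33. The receptors themselves are named for their role, after their values were seen. Nr1i2 (PXR) read 102.8 on the OO array and 102.1 on the MAOO array. This is a log2 ratio of -0.01, while a second measured probe set of Nr1i2 gave 0.50. Nr1i3 (CAR) read 567.9 and 585.9. Rxra lay at 0.09 with 1 probe set and -0.32 with the other, and the 3 measured probe sets of Hnf4a ranged from -0.22 to 0.64. For Nr1i2, Rxra and Hnf4a the probe sets thus differed from each other by more than the brightest of them differed between the arrays.

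Of 7 listed genes that donate electrons to P450 enzymes, bind them or start haem synthesis, 6 were measured; P450 reductase, the main donor, was not analysed here. All 6 lay within 1.5-fold, as did all but 3.05% of measured genes. Of the 6, 2 were higher and 4 lower (4 and 2 with the loess trend removed), against 52.0% of all measured genes lower. Their median of -0.01 turned to 0.003 with the loess trend removed and to 0.04 with the mean of all measured probe sets. Cyb5r3, the cytochrome b5 reductase gene, was highest at 0.16, followed by Alas1, the first enzyme of haem synthesis, at 0.13. Cyb5a, which encodes cytochrome b5, lay at -0.10 and the P450-binding protein gene Pgrmc1 at -0.10.

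Known PXR and CAR targets outside the subfamily mostly lay close to the background under the main scaling. Of 13 measured genes of 21 listed, 8 were higher and 5 lower, against 48.0% of all measured genes higher, with a median log2 ratio of 0.05. Within 1.5-fold lay 12, as did all but 3.05% of measured genes. With quantile normalization, and likewise with the loess trend removed, 10 were higher and 3 lower, with medians of 0.11 and 0.13. The exception was Cyp2b10, whose brightest probe set was at least 2.93-fold higher, with signals of 21.4 on the OO array and 117.1 on the MAOO array. Its 3 measured probe sets ranged from 1.14 to 1.57 in log2 ratio. Gstm2, a glutathione transferase, followed at 0.48 and the lipogenic gene Thrsp at 0.23, while the efflux pump gene Abcc2 was lowest at -0.30. Cyp3a11, itself a standard target of PXR, lay at -0.22 under the main scaling. It lay at -0.05 with quantile normalization and at -0.11 with the loess trend removed. The part of PXR or CAR in these values was not tested.

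Female-biased liver genes outside the subfamily included the genes with the largest ratios among these lists. Of 8 measured genes of 14 listed, 6 were higher and 2 lower, against 48.0% of all measured genes higher, with a median log2 ratio of 0.64. Of these, Cyp2b9, Cyp2b13 and Cyp2b10 reached the minimum on the MAOO array alone. The other 5 had a median of 0.23, with 3 higher and 2 lower; of these 4 reached the minimum on both arrays, with a median of 0.39. Cyp2b9 read 18.7 and 660.4, at least 16.5-fold higher on the MAOO array, and Cyp2b13 read 1.9 and 252.2, at least 6.30-fold higher. Cyp2b10, also on the PXR and CAR list, was the third, and Cyp17a1, a steroid hydroxylase, was 1.66-fold higher. Of the members known as female-predominant, Cyp3a16 shared this side and Cyp3a44 did not. The 4 measured male-biased genes of 15 listed had a median of -0.12, with Bcl6 at -0.42, the glutathione transferase gene Gstp1 at -0.15, Cyp7b1 at -0.09 and Cyp2d9 at 0.14. Female-predominant Cyp3a genes and the Cyp2b genes were known to differ on these arrays when the lists were made, so the counts are a description.

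**Figure D4:**
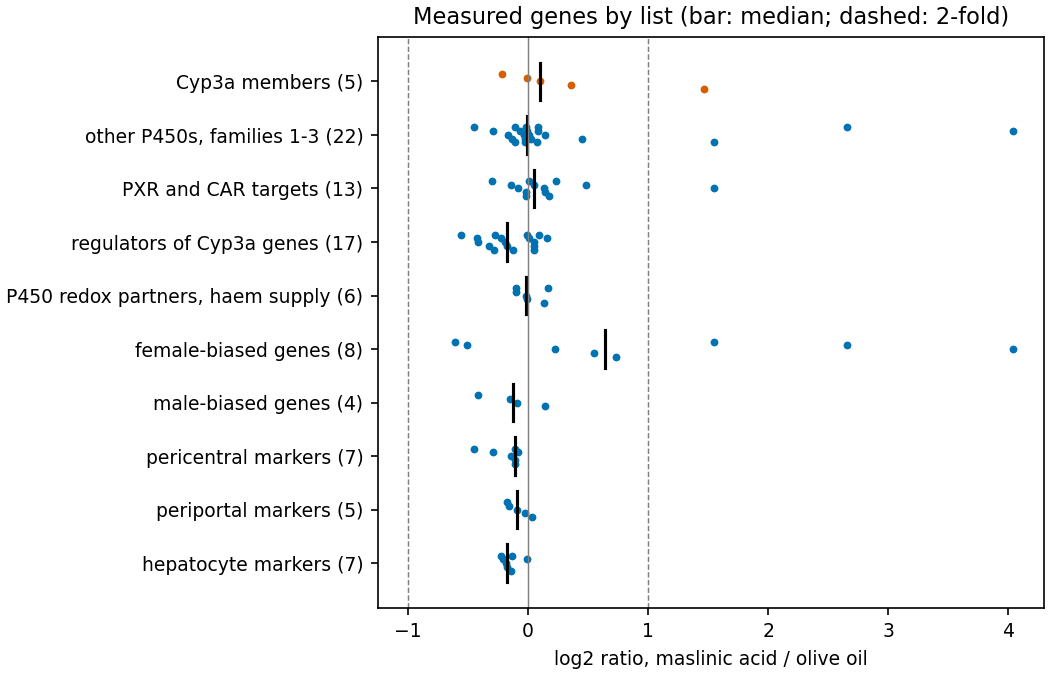
Log2 ratio (MAOO array over OO array) of each measured gene, by list, with the number measured in brackets; bars are medians and dashed lines 2-fold. The Cyp3a median is 0.10 with Cyp3a16 alone past 2-fold, the female-biased median is 0.64 (0.23 without the 3 Cyp2b genes), and the regulator median is -0.17.

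Most of the other P450 genes of families 1 to 3 were little apart. Of 34 with a probe set of their own 22 were measured. Within 1.5-fold lay 19 of these, as did all but 3.05% of measured genes. The 3 that did not were Cyp2b9, Cyp2b13 and Cyp2b10, each at least 2-fold higher, against 0.305% of all measured genes. These 3 reached the minimum on the MAOO array alone, so they could be measured only as higher there. Cyp3a16 reached it on both arrays, but on the OO array its signal of 81.6 was only 1.02 times the minimum. With the higher minimum among the alternatives, Cyp3a16 too passed through the MAOO array alone. In all 10 were higher and 12 lower, against 14 and 8 with quantile normalization and 16 and 6 with the loess trend removed. The median of -0.01 turned to 0.05 and 0.07 with these scalings. Cyp1a2, a pericentral enzyme, was lowest at -0.45 (4917.5 and 3589.8).

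Cyp3a enzymes are known to be most abundant around the central vein, so markers of both liver zones were examined. All 7 measured pericentral genes lay lower on the MAOO array, against 52.0% of all measured genes lower. Their median log2 ratio was -0.11, led by Cyp1a2 at -0.45, Cyp2e1, the ethanol-inducible P450, at -0.29, Slc1a2 at -0.14 and Gulo at -0.11. Periportal genes had a median of -0.09 over 5 measured, with Cps1 at -0.18, Arg1 at -0.16, Hal at -0.09 and Pck1 at 0.03. Of these 5, 1 was higher and 4 lower, and 2 and 3 with quantile normalization or with the loess trend removed. Summed signals of the pericentral list were 29746 on the OO array and 25349 on the other, and of the periportal list 25945 and 24113. Cyp3a11 lay on the same side as both lists and Cyp3a13, Cyp3a16 and Cyp3a25 on the other, and the part of zonation in the Cyp3a values was not tested.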

How the data were processed

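Liver RNA of 2 diets was measured on 1 Affymetrix array each. The deposited values are 1 intensity per probe set, which the authors obtained with MAS5 according to the labels (per the submitters' processing notes); the sources used here give neither its version and settings nor any pooling of RNA. Of 22690 probe sets, 20380 named 1 gene, 691 several, 1555 none, and 64 were controls; 20351 of the first had an Entrez number found in the GRCm38.p6 gene table. Gene names come from the platform annotation.

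Each array was rescaled to a 2% trimmed mean of 500, signals under 100 were set to 100 (40.0 as deposited), and a gene, represented by its brightest probe set, was measured at 200 or more (80.0 as deposited) on at least 1 array. Differences are described by size alone (1.5-fold, 2-fold, 3-fold), since 1 array per diet allows no test, and the number of arrays limits the precision. Detection calls were not used here. The members and lists were chosen with earlier results of these data known. Genes named are the members, up to 4 measured genes of each list, those of largest absolute log2 ratio, the 3 nearest to Cyp3a16 in ratio, the 2 nearest in gene order on each side, and Apoe and Xist; others are said to be named after their values were seen. The steps were tested on simulated data. Upstream sequences were aligned with Biopython 1.88, with gaps at the ends free and identity taken over columns between the outermost aligned bases. Alternatives changed the scaling, floor (50, 200), minimum (none, 400, or on the mean), probe set rule and probe set types.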

Additional observations from a re-analysis of the deposited data

Results flagged for a closer look

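A signal outside the comparison of the members was read by the probe set that carries 2 gene symbols of the Cyp3a subfamily and was therefore not named. It read 6933.0 on the OO array and 8597.6 on the MAOO array, 1.24-fold higher and a log2 ratio of 0.31. Its ratio stands on the same side as those of Cyp3a13, Cyp3a16 and Cyp3a25. Which transcripts it read was not tested.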

How the results depend on the processing

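The 11 alternatives were chosen with earlier results of these data known. Leaving out an array would leave a diet with none. No paired analysis was possible because there is a single array for each diet. Of 220 values under the alternatives, 218 stayed within set limits. These were the spread between probe sets of a gene (SD 0.23 in log2 ratio) or 1.5 times the count. The values outside these limits were the count of measured genes at least 2-fold lower. It was 18 in the main setting, 7 with a floor of 200 and 7 with a minimum of 400. Among the log2 ratios followed, only that of Cyp3a16 was 2-fold or more in the main setting. Only its values could therefore turn the direction of a 2-fold difference, and 0 did. Cyp3a16 stayed at least 2-fold higher in all 11. Of 55 member values 1 changed sign, that of Cyp3a44. Settings on the floor and the probe sets cannot move the member ratios, since each member has 1 probe set with signals above every floor used. A minimum decides only whether a gene is counted. Cyp3a16 passed the minimum of 400 through its signal on the MAOO array alone. Dim signals, such as that of Cyp3a16 on the OO array, are the least precise.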

Other observations

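Of the 3 probe sets of Xist, the RNA that silences an X chromosome in female cells, the brightest read 2866.6 on the OO array and 2136.0 on the MAOO array, another read 2251.7 and 2486.2, and the third read 169.9 and 88.7.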
